A study of Homo sapiens with 6 samples.

Results

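The anaphase-promoting complex or cyclosome (APC/C) genes described here are 10 genes of mitotic exit: the activators CDC20 and FZR1, the E2 enzymes UBE2C and UBE2S, the securin gene PTTG1, the separase gene ESPL1, and the core subunits CDC27, CDC16, CDC23 and ANAPC1. Other subunits of the complex are described as a separate list further below. The 10 genes were listed by symbol for their place in this pathway, and each symbol matched 1 gene identifier. They are 10 of the 21447 genes whose estimated read counts were summed from transcripts, and all 10 were among the 14323 genes that passed the filter on low counts and were tested. The RNA came from U-2 OS, a human osteosarcoma cell line grown without synchronization. Bulk RNA sequencing covered 3 libraries of untreated cells and 3 libraries of cells exposed to 4 Gy of ionizing radiation (IR) and lysed 24 h later, with the same line and medium in both groups and no other allele or agent named. The study calls the libraries of a group independent samples, but no source used here says whether each came from a culture of its own, so the p-values measure the spread between these samples, which may be technical.

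The APC/C is a ubiquitin ligase built from many subunits, some of which form a scaffold (ANAPC1) and others tetratricopeptide-repeat arms (CDC27, CDC16 and CDC23) that hold the activators. CDC20 activates it in mitosis once the spindle checkpoint is satisfied, and FZR1 takes over in late mitosis and G1. UBE2C starts ubiquitin chains on substrates and UBE2S extends them. When securin is destroyed, separase is freed to cut cohesin, and sister chromatids part. Much of this regulation acts on the proteins, which RNA levels do not measure.

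The libraries held between 18573309 and 22953834 estimated counts, apart from IR replicate 3 with 45308792, and the 10 genes had mean counts per library between 1237 and 7479. IR replicate 3 stood apart from its group, with a chi-square per gene of 29.1 and 32.2 against the other irradiated libraries, whereas the other replicate pairs gave values from 3.45 to 9.16. Fold changes of the genes with a wide spread in the irradiated group are also given without it. The labelled irradiation was checked on CDKN1A, the p21 gene induced by p53, which read 122, 124 and 120 CPM (counts scaled to a common library size with TMM factors) in untreated cells and 322, 341 and 390 CPM after IR. Of the mesenchymal markers, VIM, COL1A1, SPARC and FN1 lay between 947 and 3509 CPM in every library and RUNX2 between 11.3 and 16.1 CPM, while COL1A2 stayed below 2.15 CPM. Of the 6 markers of other cell types, ALB was at 0 in all libraries, PECAM1, CDH5 and PTPRC did not exceed 1.76 CPM, CDH1 (the E-cadherin gene, not FZR1) reached 3.43 CPM and EPCAM reached 10.6 CPM. RUNX2 was called lower after IR (log2 fold change -0.36, adjusted p = 0.025) and CDH1 higher (0.61, adjusted p = 0.047), a call that was lost without IR replicate 3 (0.70, adjusted p = 0.053), and the part of either in the results was not tested. Counts also followed base composition: against the mean over all libraries, log2 levels changed by -0.12 to -0.07 per 10 percentage points of GC in the untreated libraries and by 0.03, 0.07 and 0.18 in IR replicates 1, 2 and 3. The part of this trend in any single gene was not tested, and values with the trend removed are given beside those of the 10 genes.

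The promoters of the genes are shown first, because several mitotic genes share a cell cycle genes homology region (CHR) and CCAAT boxes near the start of transcription. Promoter windows of 250 bases before to 50 bases after the start (RefSeq, GRCh38.p14) were found for 9 of the 10 genes, with 11 start sites in all. The letters searched, on both strands, were TTTGAA or TTTAAA for the CHR, CCAAT for the CCAAT box and GGCGGGAA for the core of an E2F site. TTTAAA reads the same on both strands, and in PTTG1 CCAAT boxes of opposite strands share bases. Of the 9 genes, 6 had CHR letters, 7 had CCAAT letters, 1 (CDC23) had the E2F core, and 4 had both CHR and CCAAT letters. Among all 35116 promoter windows in the table, 24.0% held the CHR letters, 34.6% the CCAAT box, 3.16% the E2F core and 9.27% both CHR and CCAAT letters. These shares count windows, whereas a gene was counted if any of its start sites held the letters, so the units differ. The 4 windows with both are printed from 5′ to 3′ on the strand of the gene, with matches in capitals, since they include the separase, securin and CDC20 genes. They lie at chr12:53268049-53268348 (plus strand, ESPL1), chr5:160421605-160421904 (plus strand, the first of 2 PTTG1 start sites), chr1:43358731-43359030 (plus strand, CDC20) and chr17:47189246-47189545 (minus strand, CDC27).
ESPL1: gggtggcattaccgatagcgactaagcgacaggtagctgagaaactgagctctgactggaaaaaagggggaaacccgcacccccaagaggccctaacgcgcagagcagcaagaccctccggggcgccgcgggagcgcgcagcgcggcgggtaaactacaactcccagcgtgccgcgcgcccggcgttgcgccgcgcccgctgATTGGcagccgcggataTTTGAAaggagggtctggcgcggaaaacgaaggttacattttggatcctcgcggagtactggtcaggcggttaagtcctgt
PTTG1: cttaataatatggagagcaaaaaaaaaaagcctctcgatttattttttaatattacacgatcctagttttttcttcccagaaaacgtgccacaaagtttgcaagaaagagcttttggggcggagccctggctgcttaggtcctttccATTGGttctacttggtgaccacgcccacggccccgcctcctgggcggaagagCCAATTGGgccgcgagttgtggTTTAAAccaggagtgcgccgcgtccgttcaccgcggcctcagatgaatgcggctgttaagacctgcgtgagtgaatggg
CDC20: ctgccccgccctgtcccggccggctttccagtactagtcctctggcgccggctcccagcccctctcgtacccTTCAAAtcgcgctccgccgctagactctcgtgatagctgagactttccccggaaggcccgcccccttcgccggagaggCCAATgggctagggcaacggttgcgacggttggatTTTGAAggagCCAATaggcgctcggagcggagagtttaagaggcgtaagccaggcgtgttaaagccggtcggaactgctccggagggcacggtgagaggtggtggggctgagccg
CDC27: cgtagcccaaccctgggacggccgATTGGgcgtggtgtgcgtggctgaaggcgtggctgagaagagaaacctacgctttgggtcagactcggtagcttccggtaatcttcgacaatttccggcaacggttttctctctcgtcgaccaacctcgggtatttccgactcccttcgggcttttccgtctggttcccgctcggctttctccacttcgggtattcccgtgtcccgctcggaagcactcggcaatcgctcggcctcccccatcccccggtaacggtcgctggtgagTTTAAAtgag
In ESPL1 the CHR letters began 31 bases before the start and the CCAAT letters, on the opposite strand, 48 bases before it. In the printed PTTG1 window the CHR letters began at 29 bases and the nearest CCAAT letters at 48 bases before the start. In CDC20 the CHR letters nearest to the start began 65 bases before it, between CCAAT letters at 100 and 55 bases. CDC27 carried them differently, with CHR letters at base 41 after the start and CCAAT letters 226 bases before it. These matches describe the letters of the windows and nothing more.

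Of the 10 genes, 4 were called lower after IR by edgeR's quasi-likelihood test with an adjusted p under 0.05, against 14.5% of all genes tested, and 0 were called higher, against 15.5%. The called genes were ESPL1, CDC27, CDC23 and ANAPC1, which means separase and 3 of the 4 core subunits among the 10 genes. Neither the activators nor the E2 enzymes nor securin passed the test. None of the 10 other APC/C subunits, described further below, was called. FZR1 was higher at an unadjusted p of 0.022 (edgeR) but was not called by edgeR (adjusted p = 0.066) or DESeq2 (adjusted p = 0.062). DESeq2 called none of the 10 genes higher. No share over all genes is given here for unadjusted p-values or for DESeq2. Counts by either, for the 10 genes or for the lists below, are therefore not read as results about those genes. The libraries of the groups did not overlap for the same 4 genes, all lower, and for FZR1, higher, while 5 genes overlapped; over all tested genes 23.3% were lower and 23.8% higher without overlap. The median log2 fold change was -0.09 over the 10 genes and 0.01 over all genes tested. With the GC trend removed, 4 of the 10 genes were again called lower, against 12.6% of all genes, and 0 higher, against 11.7%, but the set was then ESPL1, CDC27, CDC20 and UBE2S, and the medians were -0.14 and 0.00. With an offset for effective length, 2 genes (ESPL1 and CDC27) were called lower, against 6.11% of all genes. Without IR replicate 3 the count was 5 (CDC20 added to the first 4), against 13.7%. In whole cultures, fewer cells in a phase of the cycle and less RNA per cell cannot be told apart.

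**Figure D1:**
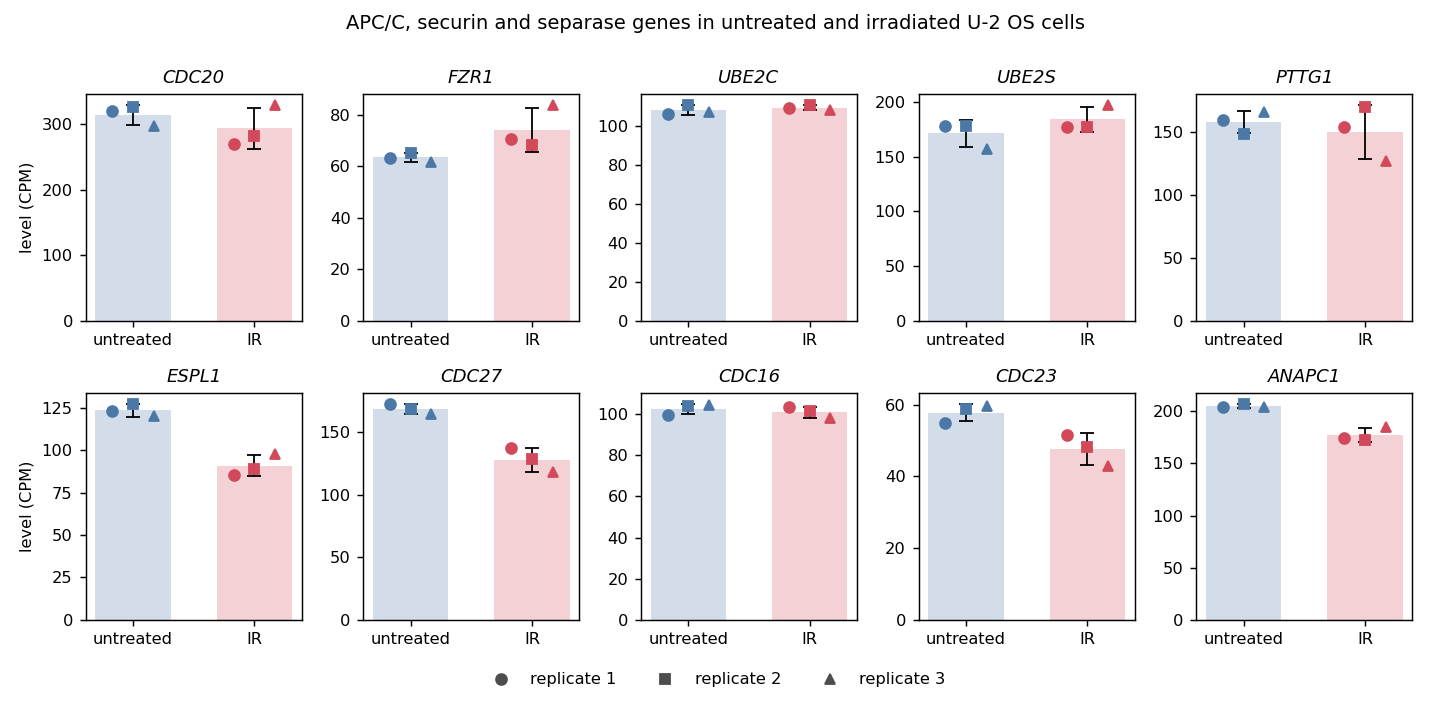
Level in CPM (y axis, from 0) of each of the 10 genes in untreated and irradiated (IR) cells; bars are means of 3 libraries, error bars are SD, and each point is a library with its replicate number as the symbol. The 3 irradiated points lie below the 3 untreated points for ESPL1, CDC27, CDC23 and ANAPC1 and above them for FZR1.

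ESPL1 encodes separase, the protease that cuts the cohesin ring (chr12:53268299-53293638, plus strand, GRCh38, 31 exons in its canonical transcript). It read 123, 127 and 120 CPM in the untreated libraries and 85.4, 89.1 and 97.5 CPM after IR. Every irradiated library was below every untreated one, and IR replicate 3 was the highest of the irradiated group. The log2 fold change was -0.44 (SE 0.07, 95% confidence interval -0.60 to -0.29, adjusted p = 0.0019, edgeR), a decrease of 26.4%. ESPL1 was called lower in all 15 alternatives tried, with log2 fold changes between -0.59 (GC trend removed) and -0.32 (length offset). The same direction was seen for ESPL1-201, which held 84.2% ± 3.84 of the gene's counts in untreated cells (SD, n = 3). Its TPM (a share of transcripts, and so a value per length) was 14.5, 16.2 and 14.9 before and 10.1, 9.96 and 13.5 after IR. Of the 4 members with both CHR and CCAAT letters, ESPL1 and CDC27 were called lower, and CDC20 and PTTG1 were not (14.5% of all genes were called lower). CDC23 and ANAPC1, which lacked the pair, were called lower too. CDC20 was called lower with the GC trend removed (adjusted p = 0.014) and without IR replicate 3 (adjusted p = 0.035). The part of these letters in the calls was not tested.

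CDC27 (APC3), the arm subunit whose repeats take up the tails of the activators, lies at chr17:47117703-47189422 on the minus strand, with 19 exons. It read 173, 168 and 164 CPM in untreated cells and 137, 128 and 118 CPM after IR. The groups did not overlap, and IR replicate 3 was the lowest library. The fitted log2 change was -0.40 (SE 0.07, interval -0.55 to -0.24, adjusted p = 0.0031), a decrease of 24.1%. CDC27 was called in all 15 alternatives as well, between -0.54 and -0.23, where the smallest change was seen with the GC trend removed. CDC27 has the lowest GC content of the 10 genes, at 39.7%. In the eighth of all genes that holds it, from 31.0% to 40.1% GC, the median log2 fold change was -0.19. An annotated long non-coding RNA on the opposite strand overlaps its exons, and reads of the pair cannot be told apart unless strand was used in counting, which is not given in the sources used here.

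CDC23 (APC8), another arm subunit, is at chr5:138187650-138213343 on the minus strand (16 exons). Its level was 55.0, 58.8 and 59.6 CPM in untreated cells and 51.5, 48.2 and 42.8 CPM after IR. The groups did not overlap, their nearest values were those of untreated replicate 1 and IR replicate 1, and the lowest came from IR replicate 3. The log2 fold change was -0.29 (SE 0.08, interval -0.47 to -0.10, adjusted p = 0.025), and without IR replicate 3 it was -0.22 (adjusted p = 0.035). The call was lost with the GC trend removed (-0.16, adjusted p = 0.086) and with the length offset (-0.27, adjusted p = 0.18). Exons of CDC23 overlap KIF20A on the opposite strand, a kinesin gene that also fell (log2 fold change -0.41, adjusted p = 0.0021), so that their reads may not be separate measurements.

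ANAPC1, the largest scaffold subunit, is at chr2:111611639-111884690 on the minus strand (48 exons). It read 204, 207 and 204 CPM in untreated cells and 174, 172 and 185 CPM after IR. The untreated libraries were close to each other, and the irradiated ones were all lower, with IR replicate 3 nearest to them. The fitted log2 change was -0.21 (SE 0.06, interval -0.35 to -0.08, adjusted p = 0.024), and -0.25 without IR replicate 3 (adjusted p = 0.0078). ANAPC1 was not called with the GC trend removed (-0.12, adjusted p = 0.17) or with the length offset (-0.18, adjusted p = 0.23). CDC23 and ANAPC1 each lost the call when untreated replicate 1, 2 or 3 or IR replicate 2 was left out, and each was called in 7 of 15 alternatives. The annotation holds 6 copies of ANAPC1 and 3 of CDC27 elsewhere in the genome (and 5 of UBE2C, 2 of UBE2S and 1 of CDC20), which were not analysed here, and reads shared with such copies leave these counts uncertain. Annotated long non-coding RNAs overlap exons of ANAPC1, 1 on the same strand and 1 on the opposite strand.

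CDC16 (APC6) was the only one of the 4 core subunits among the 10 genes that was not called. It lies at chr13:114234887-114272723 on the plus strand. Its level was 99.8, 104 and 104 CPM in untreated cells and 103, 102 and 98.1 CPM after IR, with overlapping groups. The log2 fold change was -0.02 (interval -0.16 to 0.11, adjusted p = 0.80), and 0.08 with the GC trend removed (adjusted p = 0.30). An annotated long non-coding RNA on the opposite strand overlaps CDC16 exons too.

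CDC20, the mitotic activator, lies at chr1:43358981-43363203 on the plus strand (11 exons) and had the highest count of the 10 genes. Its level was 320, 327 and 297 CPM in untreated cells and 270, 282 and 329 CPM after IR. IR replicates 1 and 2 lay below all untreated libraries and IR replicate 3 above them all, so the groups overlapped. The fitted log2 change was -0.10 (SE 0.08, interval -0.28 to 0.09, adjusted p = 0.39). Without IR replicate 3 it was -0.20 (interval -0.33 to -0.06, adjusted p = 0.035), and with the GC trend removed it was -0.24 (interval -0.37 to -0.11, adjusted p = 0.014). The call therefore turned on a single library and on the treatment of the GC trend (CDC20 has 57.0% GC).

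FZR1, the G1 activator, lies at chr19:3506311-3538334 on the plus strand (14 exons). It read 63.2, 65.2 and 61.7 CPM in untreated cells and 70.5, 68.1 and 83.9 CPM after IR. All irradiated libraries were higher, and IR replicate 3 was far above the other libraries. The log2 fold change was 0.23 (SE 0.09, interval 0.04 to 0.42, adjusted p = 0.066) and did not pass the threshold. With the GC trend removed the sign turned (-0.11, adjusted p = 0.17), and without IR replicate 3 it was 0.12 (adjusted p = 0.18). FZR1 has 62.9% GC, and the genes from 60.3% to 74.0% GC centred on a log2 fold change of 0.34 (median). Exons of FZR1 overlap MFSD12 on the opposite strand, which had a log2 fold change of 0.23 too (adjusted p = 0.094).

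The ratio of the activators was also taken within each library, where the scaling between libraries cancels out. In log2 units of estimated counts, CDC20 to FZR1 was 2.34, 2.32 and 2.27 in untreated cells and 1.94, 2.05 and 1.97 after IR. All irradiated ratios were lower, by 0.32 on average, with an exact two-sided permutation p of 0.1 (0.3 adjusted by Benjamini–Hochberg over 3 ratios); 0.1 is the smallest p that 3 against 3 libraries allow. On the TPM scale the groups overlapped, and the difference was -0.14 (exact permutation p = 0.5, adjusted 0.6). With the GC trend of each library subtracted from both genes, an alternative chosen after seeing the data, the groups did not overlap and the difference was -0.14 (exact permutation p = 0.1, adjusted 0.1).

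UBE2C, the chain-starting E2 enzyme (chr20:45812576-45816957, plus strand, 6 exons), read 106, 111 and 108 CPM in untreated cells and 110, 111 and 108 CPM after IR. The groups overlapped within a narrow range, and the log2 fold change was 0.02 (SE 0.06, interval -0.12 to 0.15, adjusted p = 0.85), or -0.0048 with the GC trend removed (adjusted p = 0.96). UBE2S, the chain-extending E2 enzyme (chr19:55399745-55407788, minus strand, 4 exons), read 178, 178 and 157 CPM in untreated cells and 177, 177 and 198 CPM after IR. Untreated replicate 3 was the lowest library and IR replicate 3 the highest, and the remaining 4 lay between 177 and 178 CPM. The log2 fold change of UBE2S was 0.10 (SE 0.08, interval -0.06 to 0.27, adjusted p = 0.32). Averaged over transcripts by TPM, UBE2S has the highest GC content of the 10 genes, 65.7%, while UBE2S-201 alone has 55.7%. With the GC trend removed at that average, the value was -0.32 (interval -0.47 to -0.16, adjusted p = 0.0089), whereas the length offset gave -0.07 (adjusted p = 0.70). Without IR replicate 3 it was 0.039 (adjusted p = 0.72). No direction can therefore be given for UBE2S. The log2 ratio of UBE2C to UBE2S differed by -0.09 in counts (exact permutation p = 0.5) and by 0.14 in TPM (exact permutation p = 0.2, adjusted 0.6). It differed by 0.31 with the GC trend subtracted, without overlap (exact permutation p = 0.1, adjusted 0.1), so that its sign turned on the scale.

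PTTG1 encodes securin, the inhibitor and chaperone of separase (chr5:160421855-160428739, plus strand, 6 exons). It read 160, 148 and 166 CPM in untreated cells and 154, 170 and 127 CPM after IR. IR replicate 2 was the highest of all libraries and IR replicate 3 the lowest. The fitted log2 change was -0.08 (SE 0.10, interval -0.30 to 0.15, adjusted p = 0.59), and 0.02 without IR replicate 3 (adjusted p = 0.84) or -0.010 with the GC trend removed (adjusted p = 0.95). Of its 2 annotated copies, PTTG2 was in the count tables and reached at most 0.0664 CPM. The other, PTTG3P, was not in them, and reads shared with it leave the counts of PTTG1 uncertain. The log2 ratio of securin to separase counts was 0.38, 0.22 and 0.47 in untreated cells and 0.85, 0.93 and 0.38 after IR. IR replicates 1 and 2 had higher ratios than any untreated library, but IR replicate 3 fell inside the untreated range, and the mean difference of 0.36 had an exact permutation p of 0.2 (adjusted 0.3). In TPM the difference was 0.15 (exact permutation p = 0.6, adjusted 0.6), and IR replicate 3, at 3.49, lay below the untreated range of 3.72 to 3.90. After subtraction of the GC trend from the counts, the ratio was 0.58 higher after IR, and the groups did not overlap (exact permutation p = 0.1, adjusted 0.1).

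**Figure D2:**
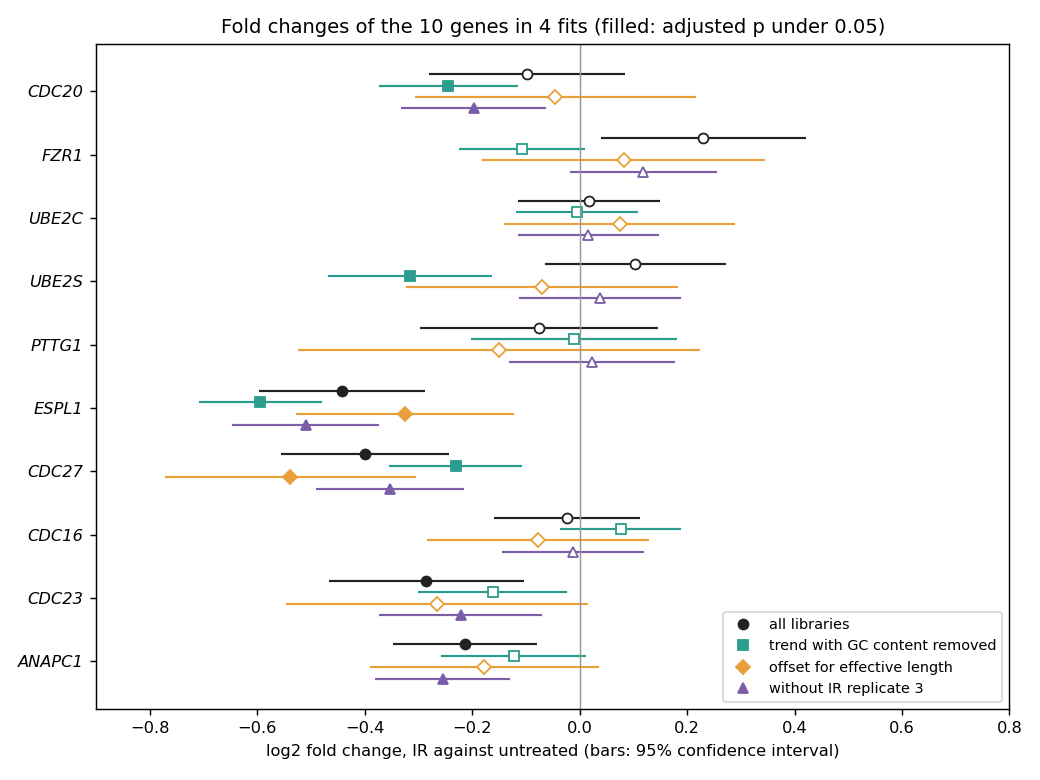
Log2 fold change after IR (x axis) of each of the 10 genes in 4 fits: all libraries, GC trend removed, length offset, and without IR replicate 3; bars are 95% confidence intervals and filled symbols have an adjusted p under 0.05. ESPL1 and CDC27 lie left of 0 with filled symbols in all 4 fits, while UBE2S goes from 0.10 to -0.32 and FZR1 from 0.23 to -0.11 once the GC trend is removed.

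**Figure D3:**
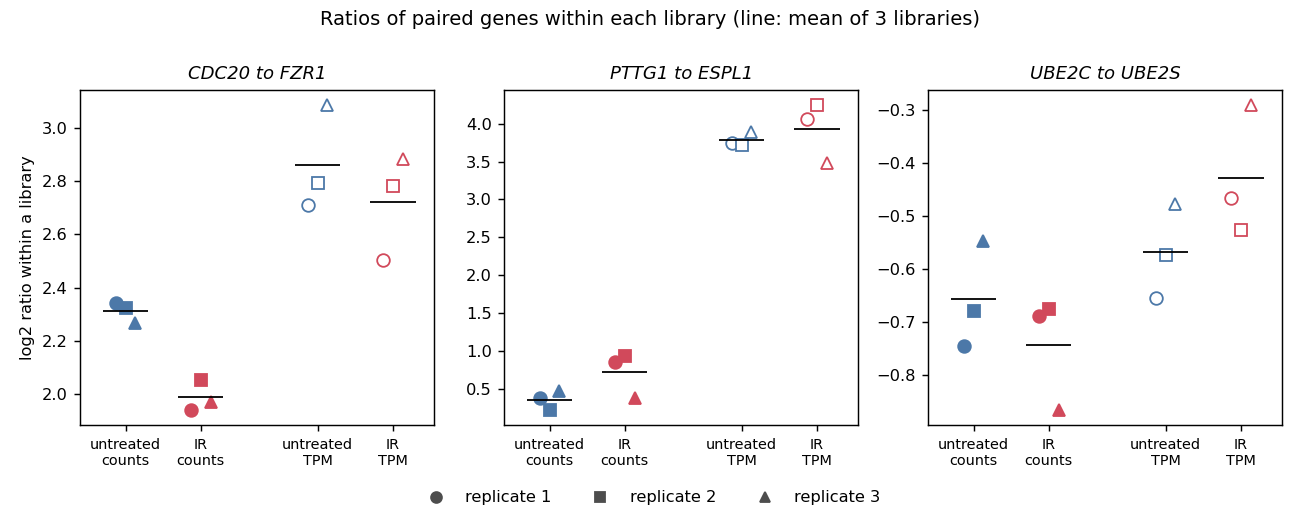
Log2 ratio within each library (y axis) of CDC20 to FZR1, PTTG1 to ESPL1 and UBE2C to UBE2S, from estimated counts (filled) and from TPM (open); the black line is the mean of 3 libraries and symbols mark replicate numbers. The groups separate for CDC20 to FZR1 in counts and overlap in the other panels and in TPM, with IR replicate 3 apart from IR replicates 1 and 2 for PTTG1 to ESPL1.

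The genes also differed in level. TPM values, summed over the transcripts of a gene and so on a scale per length, placed PTTG1 highest in untreated cells at 444 ± 18.6 TPM (SD, n = 3). Its sum took in transcripts without a defined coding sequence. In untreated cells PTTG1-204 had 186, 224 and 152 TPM and the retained intron PTTG1-207 had 89.0, 99.6 and 181 TPM. The coding PTTG1-201 had 149, 82.7 and 104 TPM, so the place of PTTG1 is not that of securin-coding RNA. UBE2S followed at 269 ± 32.0 TPM, CDC20 at 223 ± 5.41 TPM and UBE2C at 181 ± 12.3 TPM, each with a range apart from its neighbours. The core subunits were lower, with CDC27 at 99.4 ± 8.44 TPM, CDC16 at 87.2 ± 1.04 TPM and ANAPC1 at 46.2 ± 1.60 TPM, again with separate ranges. ESPL1 at 32.2 ± 1.06 TPM, CDC23 at 32.2 ± 1.37 TPM and FZR1 at 30.7 ± 3.41 TPM closed the order, and their ranges overlapped. After IR the order began with the same 4 genes, at 384 ± 74.7 TPM for PTTG1, 247 ± 5.87 TPM for UBE2S, 210 ± 43.1 TPM for CDC20 and 184 ± 16.1 TPM for UBE2C. The range of CDC20 then overlapped those of UBE2S and UBE2C. CDC27, at 66.4 ± 8.44 TPM, came after CDC16, at 79.8 ± 2.79 TPM, where before IR it had come ahead of it. The place of CDC27 took in uneven transcript estimates. CDC27-211, a nonsense-mediated decay transcript, had 26.1 TPM in IR replicate 3 and at most 8.51 TPM elsewhere. CDC27-218 had 14.6 TPM in untreated replicate 1 and 0 TPM elsewhere. IR replicate 3 was the lowest library for CDC27 in CPM (118) but the highest irradiated one in TPM (74.1). ANAPC1 at 39.6 ± 5.01 TPM was followed by FZR1 at 31.6 ± 4.29 TPM, CDC23 at 25.9 ± 3.45 TPM and ESPL1 at 24.9 ± 1.76 TPM, where neighbouring ranges overlapped among the last 3.

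Transcript estimates within the genes varied more than the gene sums, above all in IR replicate 3. The leading transcript of PTTG1, PTTG1-204, annotated without a defined coding sequence, had 186, 224 and 152 TPM in untreated cells and 203, 254 and 7.08 TPM after IR. The coding transcript PTTG1-201 had 149, 82.7 and 104 TPM before and 97.9, 51.8 and 271 TPM after IR. In IR replicate 3 the level assigned to PTTG1-204 was thus low and that of PTTG1-201 high, and all other libraries had both. CDC16-204 was at 0 TPM in IR replicate 3 and between 16.9 and 25.4 TPM elsewhere, and CDC16-203 was at 0 TPM in untreated replicate 1 and at 25.8 TPM in IR replicate 3. CDC27-204, a coding transcript, had 49.4, 45.9 and 39.9 TPM in untreated cells and 32.8, 27.5 and 14.1 TPM after IR, lower in every irradiated library. The longer CDC27-201 had 26.7, 26.4 and 28.3 TPM before and 22.2, 22.4 and 23.5 TPM after, so both of its major coding transcripts were below their untreated range. The share of a gene's TPM in its leading transcript gave exact permutation p-values from 0.2 to 0.9 over the 10 genes (0.6 to 0.9 adjusted). For PTTG1 the share differed by -5.98 percentage points with all libraries and by 11.1 without IR replicate 3.

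**Figure D4:**
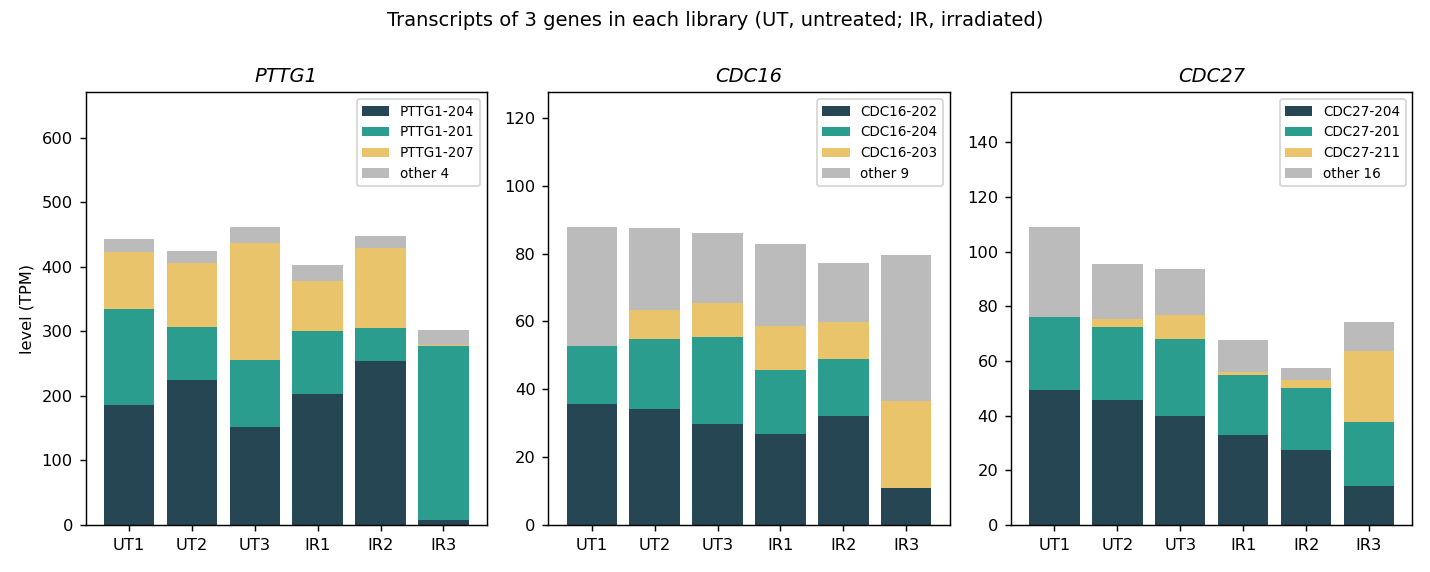
TPM of the transcripts of PTTG1, CDC16 and CDC27 (y axis) in each library, stacked to the gene's sum; the 3 transcripts of highest mean are coloured and the others are grey (UT, untreated; IR, irradiated). In IR replicate 3 PTTG1-204 falls to 7.08 TPM and CDC16-204 to 0, and CDC27-204 is lower in each irradiated library than in any untreated one.

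The rest of the pathway was described by 4 lists of genes around the 10. None of the 10 other APC/C subunits was called by edgeR or DESeq2 in either direction. Of all genes, edgeR called 14.5% lower and 15.5% higher. At an unadjusted p under 0.05, 3 of these subunits were higher and 0 lower. Their median log2 fold change was 0.11 (0.01 over all genes tested), or 0.045 without IR replicate 3. The lowest were ANAPC4 (-0.12), ANAPC15 (-0.12) and ANAPC10 (-0.01), and the highest were ANAPC11 (0.27), the RING subunit, CDC26 (0.22) and ANAPC2 (0.21), the cullin subunit. Without IR replicate 3 ANAPC11 was at 0.040 and ANAPC2 at 0.050. Removal of the GC trend put ANAPC11 at 0.077, while ANAPC2 (-0.13), ANAPC4 (0.065) and ANAPC10 (0.19) changed sign, and ANAPC10 did so without IR replicate 3 as well (0.11). With the GC trend removed, 3 of these subunits were called higher, against 11.7% of all genes. Those 3 were ANAPC13 (0.35, adjusted p = 0.014), ANAPC16 (0.29, adjusted p = 0.022) and CDC26 (0.32, adjusted p = 0.022), of which ANAPC13 and ANAPC16 were named after their values were seen. Whether the core subunits among the 10 genes differ in response from these other subunits was not tested.

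Of the 10 inhibitors and spindle checkpoint genes, 5 were called lower (14.5% of all genes tested were) and 0 higher (15.5% were). At an unadjusted p under 0.05, 1 (MAD1L1) was higher, and the median log2 fold change was -0.17. The lowest were BUB1B, a component of the mitotic checkpoint complex that holds CDC20 (183 ± 9.27 CPM before and 121 ± 13.3 CPM after, log2 fold change -0.60, adjusted p = 0.0013), the checkpoint kinase TTK (-0.53, adjusted p = 0.0012) and the kinase BUB1 (-0.50, adjusted p = 6.1e-04). FBXO5 (EMI1), the interphase inhibitor of the APC/C, fell as well (-0.46, adjusted p = 0.0019), as did ZWINT (-0.29, adjusted p = 0.016). MAD2L1, the checkpoint protein that binds CDC20 directly, had a log2 fold change of -0.05 (adjusted p = 0.61). The highest values were MAD1L1 (0.20), MAD2L1BP (0.02) and MAD2L1 itself, and all 3 changed sign with the GC trend removed (-0.063, -0.0020 and 0.17). FBXO5 and ZWINT were named after their values were seen. The same 5 genes were called with the GC trend removed (12.6% of all genes were called lower), and the count without IR replicate 3 was again 5 (13.7% were).

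Among 24 known substrates of the APC/C, 16 were called lower, against 14.5% of all genes, and 0 higher, against 15.5% (also 0 at an unadjusted p under 0.05 and by DESeq2), and the median was -0.30. The lowest were CKAP2 (-0.55, adjusted p = 0.0021) and ANLN (-0.51, adjusted p = 0.0026), which act on the spindle and in cytokinesis, and RRM2, a subunit of ribonucleotide reductase (373 ± 19.8 CPM before and 262 ± 6.77 CPM after, -0.51, adjusted p = 7.6e-04). The highest were TK1 (0.04), CCNB1 (-0.02) and CCNB2 (-0.08), and none of these 3 was called. TK1 (-0.22) and CCNB1 (0.083) changed sign with the GC trend removed, as did TK1 without IR replicate 3 (-0.14). CCNB1, the cyclin whose destruction by the APC/C ends mitosis, read 405 ± 20.3 CPM in untreated cells and 399 ± 28.7 CPM after IR. CCNB1 shares with CDC20, PTTG1 and UBE2C that it did not pass the test, which does not show that their levels were equal.

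The 6 separase substrates and guards of cohesion included 5 called lower, where 14.5% of all genes were, and 0 higher, where 15.5% were. Their median was -0.42, and 0 were higher at an unadjusted p under 0.05 or by DESeq2. SGO2, a shugoshin that shields centromeric cohesin, fell from 85.1 ± 0.92 to 53.7 ± 5.51 CPM (log2 fold change -0.67, adjusted p = 6.3e-04). PCNT, the pericentrin gene (-0.47, adjusted p = 0.0014), and RAD21, the cohesin subunit that separase cuts (518 ± 8.91 to 383 ± 16.1 CPM, -0.44, adjusted p = 0.0012), fell along with SGO1 (-0.40, adjusted p = 0.0096) and CDCA5 (sororin, -0.26, adjusted p = 0.027). REC8, the meiotic cohesin subunit, was at 1.67 ± 0.42 CPM and had a log2 fold change of 0.37 (adjusted p = 0.29). ESPL1 thus fell together with most genes on this list, and PTTG1 had no such call.

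**Figure D5:**
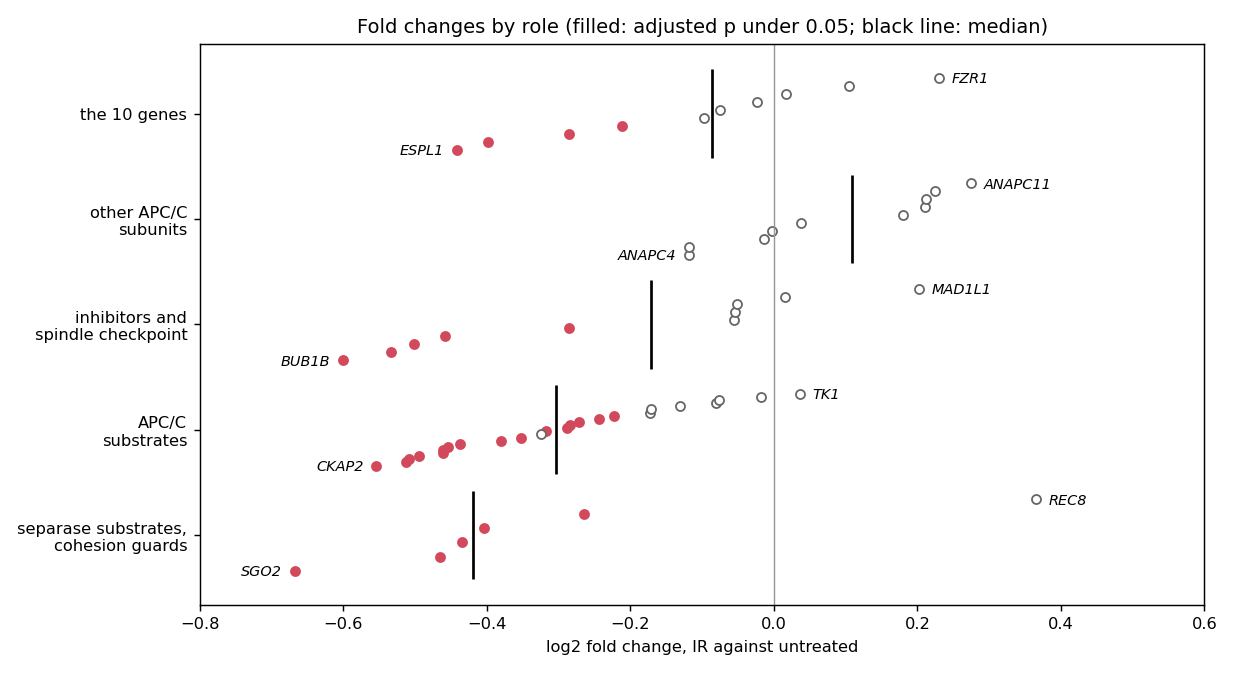
Log2 fold change after IR (x axis) of the 10 genes and of 4 lists of the same pathway; each point is a gene, filled red where the adjusted p was under 0.05, and black lines are list medians. The medians run from 0.11 for other APC/C subunits to -0.42 for separase substrates and cohesion guards, and all filled points lie left of 0.

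Genes whose profile was most like that of CDC20 were sought among the 11677 tested genes that averaged 100 or more counts. Over the 6 libraries, SNX15 (Pearson r = 0.990), TOP3A (0.987), GMPPB (0.98), NUP188 (0.98) and TFDP1 (0.979) came closest in log2 CPM. None of these 5 was called after IR, which adds no information, since they were picked for likeness to CDC20, itself not called. The 6 libraries share the GC trend and the depth of IR replicate 3, and r describes likeness over 6 points only. Among the 10 genes themselves, ESPL1 with ANAPC1 (r = 0.990) and CDC27 with CDC23 (r = 0.932) were most alike, and FZR1 with CDC23 (r = -0.909) least. Both groups enter r, so it takes in the difference between them, and ESPL1, ANAPC1, CDC27 and CDC23 are the 4 genes called lower.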

How the data were processed

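The authors removed adaptors with fastp and assigned reads with kallisto to GENCODE release 37 of GRCh38. The deposited values per transcript are the estimated count, not normalized, and TPM, which kallisto scales by effective length and by the library's sum. Length and effective length stand beside them. The labels name an mRNA kit and poly(A) RNA, while the methods of the study name a total RNA kit, so the selection of RNA is unsure.

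Transcripts were matched to GENCODE release 44 (158711 matched, with 98.2% to 98.5% of the counts of a library, and 2460 were left out). Estimated counts were then added up by gene and rounded to whole numbers. Genes kept by filterByExpr were scaled by TMM and tested over all 6 libraries by edgeR's quasi-likelihood test (edgeR 4.0.16, limma 3.58.1, R 4.3.3), with Benjamini–Hochberg adjustment over all genes tested and a threshold of 0.05. A gene's GC content was the mean over its transcripts, weighted by their mean TPM. The GC trend was removed per library by a lowess curve (span 0.3) and the length offset used the effective lengths, which may carry a bias correction as well. Confidence intervals are at 95%. Ratios and transcript shares were compared by exact two-sided permutation tests. Depth ranged from 18573309 to 45308792 estimated counts, and counting error is smallest in IR replicate 3. The scripts were tested on simulated counts.

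The members and lists were chosen with earlier results of these data known. Named genes were all 10 members, the 3 highest and 3 lowest log2 fold changes of each pathway list, the 5 genes most like CDC20 and CDKN1A, besides the marker lists, overlapping genes and those said in the text. Alternatives were no low-count filter or at least 10 counts in every library, DESeq2 size factors, DESeq2 (version 1.42.0), a likelihood ratio test, a replicate block, GC removal with and without the block, the length offset, and leaving out each library. Ratios with the GC trend subtracted were added after seeing the data. Same-numbered libraries of the groups did not deviate together (r = -0.02, 0.01 and -0.05), so the numbers were not taken as pairs. Protein sequences were not analysed here.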

Additional observations from a re-analysis of the deposited data

How the results depend on the processing

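ESPL1 and CDC27 kept their direction and call in all 15 alternatives. Over the 150 alternative values of the 10 fold changes, 121 kept direction and side of the threshold, 16 lost the call, 3 gained it and 10 changed sign, of which 2 (UBE2S with the GC trend removed, without and with the block) also passed the threshold. The cause of these changes was not tested.

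The number of the 10 genes called lower (4) became 2 with the replicate block and 2 with the length offset (6.11% of all genes were). It ranged from 2 to 5 on leaving out a library (2 without untreated replicate 1, 2 or 3 or IR replicate 2). Of these leave-out fits, the share over all genes is given only without IR replicate 3 (13.7%). None is given for the block either, so these counts are not read as results about the 10 genes. With the replicate block the adjusted p was 0.055 for CDC23 and 0.069 for ANAPC1, both lost. No source used here says whether the replicate numbers pair libraries, and they were not taken as pairs. With the GC trend removed, log2 fold changes reversed to -0.11 for FZR1, -0.0048 for UBE2C, -0.32 for UBE2S and 0.076 for CDC16. With the replicate block and the GC trend removed they were -0.11, -0.0044, -0.31 and 0.077. The length offset reversed UBE2S to -0.070. The median over the 10 genes was -0.14 with GC removed, -0.14 with the block added, -0.11 with the length offset and -0.12 to -0.076 on leaving out a library. Leaving out a library gave -0.17 to 0.023 for the log2 fold change of PTTG1. The log2 ratio of UBE2C to UBE2S reversed to 0.14 in TPM and to 0.31 with the GC trend subtracted. The difference in leading-transcript share, in percentage points, ranged on leaving out a library from -16.1 to 11.1 for PTTG1, from -11.8 to 2.83 for CDC27 and from -1.72 to 3.85 for CDC23, each of which changed sign without IR replicate 3.

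Other APC/C subunits called higher (0) were 3 with the GC trend removed (11.7% of all genes were), 3 with the block added, and 0 to 1 on leaving out a library. Inhibitors and checkpoint genes called higher (0) were 0 to 1 on leaving out a library. With the length offset, 6.11% of all genes were called lower. Cohesion genes called lower (5) were then 3, substrates (16) were 11, and inhibitors and checkpoint genes (5) were 4. Substrates called lower were 13 to 16 on leaving out a library. No share over all genes is given for the block or for leaving out a library, apart from IR replicate 3 (13.7% called lower). With 3 libraries a group, exact permutation tests cannot go below 0.1.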
